A study of Mus musculus with 24 samples.

Results

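The RNAs described here are 8 long noncoding RNAs of neurons and of the nucleus, *Malat1*, *Neat1*, *Miat*, *Meg3*, *Rian*, *Mirg*, *Snhg11* and *Peg13*, taken by gene symbol from a table of 24079 genes. All 8 had a row in the table and passed the filter of at least 15 reads in every comparison. They were followed in polysome-bound and total RNA of the striatum, to describe how much RNA that is not thought to be translated was recovered in heavy polysomal fractions. The study compared rpS6 knockin mice (rpS6P-/-), in which every phosphorylation site of ribosomal protein S6 is replaced by alanine, with wild-type littermates of the same mixed C57Bl/6/Sv129/ICR background, both sexes being used. Nucleus accumbens (Acb) and dorsal striatum (DS) were dissected from mice of both genotypes, and the ages of the animals sequenced are not given in the sources used here. A part of each cleared lysate was kept as input (called whole lysate, or Total), and another part was run on a sucrose gradient whose fractions with the most ribosomes were pooled (heavy polysomal fractions, or Heavy). This gave 8 groups (region, genotype and kind of RNA) of 3 libraries each, 24 in all, each library made from pooled mice, for which the sources give conflicting numbers.

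A long noncoding RNA is a transcript without a long conserved reading frame, and many are spliced and polyadenylated like an mRNA. Polysomes are mRNAs carrying several ribosomes, so an RNA confined to the nucleus would reach a heavy polysomal fraction only as carryover, in a dense particle that sediments with polysomes, or if some of it is exported and bound by ribosomes. *Malat1* is concentrated in nuclear speckles, the stores of splicing factors, *Neat1* builds the paraspeckle around a core of RNA-binding proteins, and *Miat* lies in separate nuclear domains of neurons. *Meg3*, *Rian* and *Mirg* are transcribed in one direction from the maternal copy of the imprinted Dlk1-Dio3 domain and host small nucleolar RNAs and microRNAs in their introns. *Snhg11* is a host gene of small nucleolar RNAs that is abundant in neurons, and *Peg13* is a paternally expressed RNA of brain.

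On GRCm38, the build to which the authors aligned their reads, *Malat1* (Entrez gene 72289) lies at chr19:5795690-5802672 on the minus strand and *Neat1* (66961) beside it at chr19:5824708-5845480, also on the minus strand. The 3 imprinted RNAs follow each other on the plus strand of chromosome 12, *Meg3* (17263) at chr12:109540996-109571729, *Rian* (75745) at chr12:109603945-109661716 and *Mirg* (100040724) at chr12:109734981-109749458. Their spans hold 1, 3 and 10 microRNA hairpins of RefSeq on the same strand, and that of *Rian* also holds 11 small nucleolar RNAs. *Miat* (330166) lies at chr5:112213228-112228948 on the minus strand and *Snhg11* (319317) at chr2:158375713-158386474 on the plus strand, with 2 small nucleolar RNAs inside. *Peg13* (353342), at chr15:72805602-72810324 on the minus strand, has a single exon inside an intron of *Trappc9* (chr15:72589620-73061204), a coding gene read in the same direction. Reads of unspliced *Trappc9* over that stretch could therefore not be told apart from *Peg13*. RefSeq calls all 8 lncRNA, whereas GENCODE M21 lists *Snhg11* as protein coding.

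The 3′ ends of *Malat1* and of the long form of *Neat1* are printed first because they differ from those of an mRNA. Both RNAs are known to be cut by RNase P and to end in an A-rich tract encoded in the gene, which folds back on U-rich tracts into a triple helix, in place of a poly(A) tail. The 100 bases of each transcript that end with the last 11 bases of the *Neat1* transcript are given 5′ to 3′ in DNA letters (bases 6592 to 6691 of *Malat1* and 20672 to 20771 of *Neat1*, GENCODE M21, GRCm38), with the runs of at least 10 bases that both share in capitals.
Malat1: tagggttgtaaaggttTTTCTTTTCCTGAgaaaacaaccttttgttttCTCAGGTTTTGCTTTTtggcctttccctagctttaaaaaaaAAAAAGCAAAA
Neat1 long form: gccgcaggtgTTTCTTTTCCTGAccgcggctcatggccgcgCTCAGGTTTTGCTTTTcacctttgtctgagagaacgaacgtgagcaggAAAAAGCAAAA
The windows shared 3 such runs of 13, 16 and 11 bases, in the same order. On the sense strand, the first run was found in 0.0526%, the second in 0.021% and the third in 0.568% of 9508 lncRNA transcripts of at least 1000 bases in GENCODE M21, these transcripts included, and in 0.0525%, 0% and 0.89% of 39997 coding transcripts of that length.

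The short form of *Neat1*, *Meg3*, *Mirg* and *Peg13* end like an mRNA. The last 60 bases of their transcripts are shown 5′ to 3′, with the polyadenylation signal AATAAA in capitals (overlapping copies included), since libraries were made from RNA bound to poly-T beads.
Neat1 short form: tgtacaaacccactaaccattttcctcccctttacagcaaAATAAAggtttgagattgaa
Meg3: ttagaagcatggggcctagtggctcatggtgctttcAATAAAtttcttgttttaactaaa
Mirg: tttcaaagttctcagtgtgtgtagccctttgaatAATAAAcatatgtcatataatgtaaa
Peg13: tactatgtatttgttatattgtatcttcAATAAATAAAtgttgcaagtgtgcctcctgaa
AATAAA or ATTAAA was present in the last 50 bases of 51.2% of the lncRNA transcripts and 63.8% of the coding transcripts of at least 1000 bases. It was also present there in the transcripts of *Rian*, *Miat*, *Snhg11* and *Malat1* but not in the long form of *Neat1*. The annotated *Malat1* transcript runs beyond the A-rich tract to 6983 bases, so its AATAAA lies downstream of the known end.

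*Miat* is known for repeats of ACTAAC, the branch point sequence that the splicing factor SF1 (gene *Sf1*) binds. Its transcript of 8758 bases held 11 copies on the sense strand (1.26 per kilobase, above 99.5% of the lncRNA transcripts), against 0 in *Malat1*, *Rian*, *Mirg* and *Peg13*, 1 in *Meg3*, *Snhg11* and short *Neat1*, and 4 in long *Neat1*. ACTAAC occurred at least once in 24% of lncRNA and 25.5% of coding transcripts. The 150 bases of *Miat* richest in it, bases 4520 to 4669 of the transcript, hold 4 copies, in capitals here.
Miat: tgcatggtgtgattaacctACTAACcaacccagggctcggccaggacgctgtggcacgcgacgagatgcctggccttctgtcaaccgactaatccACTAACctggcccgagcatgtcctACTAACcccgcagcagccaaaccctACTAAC
The longest open reading frame from ATG to stop held 58 codons in *Mirg*, 64 in *Malat1*, 76 in *Rian*, 79 in short *Neat1*, 89 in *Snhg11*, 106 in *Peg13*, 179 in *Miat* and 186 in *Meg3*. The median was 91 codons in lncRNA and 438 in coding transcripts of at least 1000 bases.

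Libraries held 9280589 to 34703044 reads assigned to genes (median 16678553), and the 8 RNAs together took 0.342 to 0.542% of them in whole lysates and 0.188 to 0.382% in heavy polysomal fractions. Of the striatal cell types, 9 markers of medium spiny neurons (the output neurons, for example *Ppp1r1b* and *Penk*) summed to 3490 to 4030 CPM (read counts relative to the library total, with totals scaled by edgeR's TMM factors over all 24 libraries) in Total and 4860 to 6600 in Heavy. The cytosolic noncoding RNA *Bc1*, a small repressor of translation in dendrites, took 15.2 to 26.1% of the reads in Total and 0.897 to 3.85% in Heavy. The sum of these markers was higher in Heavy, but in each comparison of Heavy with Total only 4 or 5 of the 9 were called higher and 1 lower. Those of microglia (6 genes) summed to 162 to 214 CPM in Total and 233 to 327 in Heavy of the Acb, with 3 called higher and 1 lower in wild-type and 3 and 0 in rpS6P-/- mice, and those of oligodendrocytes (6 genes) to 2850 to 3920 and 4250 to 5410, with 2 called higher and 2 lower in wild-type mice and 1 and 1 in rpS6P-/- mice. The part of *Bc1* and of these cells in the differences of the 8 RNAs was not tested. All values are in CPM and relative to the other genes of a library, so fewer cells of a type and less RNA per cell cannot be told apart.

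Per kilobase of exon (union of all exons of a gene), *Malat1* and *Meg3* were the most abundant of the 8 in whole lysates of wild-type mice. In the Acb their levels were 136 and 121 CPM per kilobase, in the 98.6 and 98.4 percentile of 17183 genes. *Peg13* (60.3), *Snhg11* (54.7) and *Rian* (31) followed, then *Miat* (8), *Neat1* (1.59) and *Mirg* (0.7 CPM per kilobase). In heavy polysomal fractions of the same mice, *Peg13* was first with 92 CPM per kilobase and *Meg3* second with 82.1, whereas *Malat1* was at 29.4. In the DS, *Malat1* went from 166 in Total to 47.4 CPM per kilobase in Heavy and *Peg13* from 77.4 to 97.7. The order depended on the length used. Per kilobase of the longest transcript, *Meg3* was first in both kinds of RNA of the Acb of wild-type mice (151 and 102 CPM per kilobase in Total and Heavy), *Peg13* stayed at 60.3 and 92 and *Malat1* at 136 and 29.4. The length used for *Neat1* is that of the long form, and a level per kilobase of its short form would be higher. Total was taken after nuclei had been removed, so these are not levels in the whole tissue.

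Heavy polysomal fractions were first compared with whole lysates in each region and genotype, which shows how far each RNA was depleted from polysomes relative to all genes tested. *Malat1*, *Neat1*, *Rian*, *Mirg*, *Miat*, *Meg3* and *Snhg11* had a fitted difference below 0 in all 4 comparisons, and *Peg13* had one above 0 in all 4. *Malat1*, *Neat1*, *Rian*, *Miat* and *Meg3* passed the test as lower in 4 of 4 comparisons, *Snhg11* in 3, *Mirg* in 0, and *Peg13* as higher in 2 (edgeR quasi-likelihood test, Benjamini-Hochberg adjusted p under 0.05 over all genes). In the Acb of wild-type mice, 6 of 8 were lower and 1 higher, where 11.6% of all 16687 genes were called lower and 11.5% higher. The Acb of rpS6P-/- mice gave 6 lower and 0 higher, beside 9.74% and 9.50% of all genes. The DS gave 6 lower and 1 higher in wild-type mice, beside 12% and 12.8% of 16544 genes, and 5 lower and 0 higher in rpS6P-/- mice, beside 12.1% and 13.4%. The median log2 difference of the 8 was -0.90 and -1.39 in the Acb (wild-type and rpS6P-/-) and -0.92 and -0.82 in the DS, while that of all genes tested was 0.04, 0.04, 0.00 and 0.06. Tests over 3 libraries a group measure the spread between pools of mice. Every Heavy library was below every Total library for 5 of 8 RNAs in the Acb of wild-type mice, where this held for 15.6% of all genes, and for 6, 5 and 5 of 8 in the Acb of rpS6P-/- mice and the DS of wild-type and rpS6P-/- mice, beside 14%, 17.6% and 18.2%. The reverse held for 1, 0, 1 and 1 of 8, beside 22.1%, 18.6%, 17.9% and 20.4% of all genes.

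**Figure D1:**
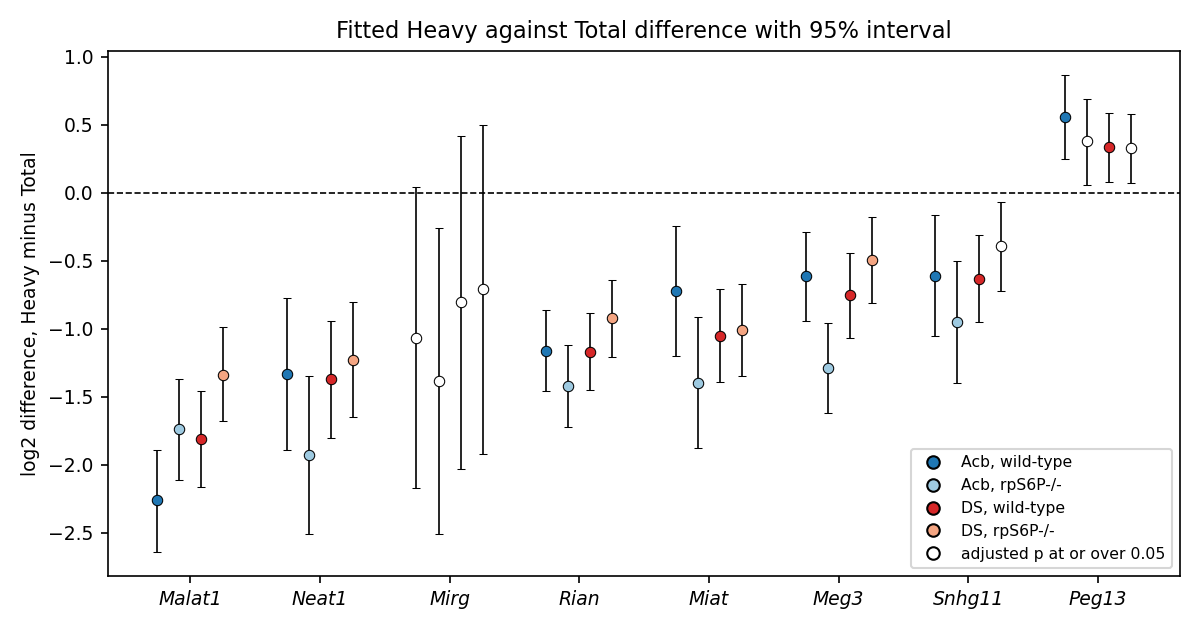
Fitted log2 difference of Heavy minus Total (vertical axis) for each RNA, with its 95% interval, in the 4 combinations of region and genotype (3 Heavy and 3 Total libraries each, spread estimated over the 12 libraries of a region). Filled points passed the test at 0.05 (edgeR, adjusted over all genes); *Malat1* ranged from -2.26 to -1.34, *Mirg* had the widest intervals, and *Peg13* was at 0.33 to 0.56.

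*Malat1* had the lowest fitted difference of the 8 RNAs in the Acb and DS of wild-type mice and in the DS of rpS6P-/- mice. In wild-type Acb it had 1080, 848 and 923 CPM in whole lysates and 265, 192 and 158 CPM in heavy polysomal fractions. In rpS6P-/- mice it had 549, 638 and 1000 CPM in Total and 249, 215 and 198 CPM in Heavy. All Heavy libraries were below all Total libraries in both genotypes. The fitted differences were -2.26 (standard error, SE, 0.18, adjusted p 1.33e-11) and -1.74 (SE 0.18, adjusted p 3.95e-09, Benjamini-Hochberg, edgeR), and 1.88% and 4.22% of genes had a lower value. In the DS of wild-type mice, *Malat1* had 960, 1060 and 1460 CPM in Total against 212, 399 and 383 in Heavy. In the DS of rpS6P-/- mice it had 1350, 1000 and 1440 CPM in Total against 427, 655 and 418 in Heavy. The libraries did not overlap there either, with differences of -1.81 (adjusted p 1.23e-11) and -1.34 (adjusted p 2.13e-08, both SE 0.17, Benjamini-Hochberg, edgeR). *Malat1* kept its call in all 16 alternatives of each comparison.

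*Neat1* was also lower in all 4 comparisons, from a much lower level. It had 35.4, 42.2 and 21.2 CPM in whole lysates of the Acb of wild-type mice and 15.4, 15.6 and 9.83 CPM in heavy polysomal fractions. The rpS6P-/- mice had 36.7, 32.9 and 37.7 CPM in Total and 14.7, 9.39 and 4.69 CPM in Heavy, the last from 96 reads. In the DS, the 6 Total libraries held 31.5 to 43.8 CPM (median 41.5) and the 6 Heavy libraries 14 to 21.4 CPM (median 14.2). Heavy and Total thus did not overlap in any group. The differences were -1.33 (SE 0.28, adjusted p 0.000379) and -1.93 (SE 0.29, adjusted p 3.71e-06) in the Acb of wild-type and rpS6P-/- mice, and -1.37 (SE 0.22, adjusted p 1.44e-06) and -1.23 (SE 0.21, adjusted p 8.36e-06, Benjamini-Hochberg, edgeR) in the DS. The counts did not separate the short, polyadenylated form from the long form.

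*Miat* had 111, 47.7 and 64.9 CPM in whole lysates of the Acb of wild-type mice and 57.5, 32.6 and 49.9 CPM in heavy polysomal fractions, so that these groups overlapped. In rpS6P-/- mice it had 50.6, 95.8 and 113 CPM in Total against 35.6, 35.3 and 28.5 in Heavy, without overlap. Its differences were -0.72 (SE 0.24, adjusted p 0.0218) in wild-type and -1.40 (SE 0.24, adjusted p 4.5e-05) in rpS6P-/- mice (edgeR, Benjamini-Hochberg). The first rested on wild-type replicate 1, without which it was -0.50 (adjusted p 0.233, Benjamini-Hochberg, edgeR). In the DS, *Miat* had 122, 213 and 183 CPM in Total and 59.8, 86.5 and 103 CPM in Heavy in wild-type mice. In rpS6P-/- mice the values were 178, 186 and 206 CPM against 110, 89.7 and 83.4. Every Heavy library of the DS was below every Total library of its genotype, with differences of -1.05 (adjusted p 2.67e-06) and -1.01 (adjusted p 4.96e-06, both SE 0.17, Benjamini-Hochberg, edgeR).

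Among the RNAs of the Dlk1-Dio3 domain, *Rian* gave the most uniform values. In whole lysates it had 577, 529 and 591 CPM in the Acb of wild-type mice, 595, 657 and 634 in that of rpS6P-/- mice, 555, 511 and 586 in the DS of wild-type mice and 566, 591 and 553 in that of rpS6P-/- mice. In heavy polysomal fractions, in the same order of groups, it had 303, 210 and 274, then 226, 226 and 256, then 183, 237 and 315, and last 293, 303 and 307 CPM. All 12 Heavy libraries were below all 12 Total libraries. The differences were -1.16 and -1.42 in the Acb (SE 0.15, adjusted p 2.3e-07 and 3.89e-09) and -1.17 and -0.92 in the DS (SE 0.14, adjusted p 6.55e-09 and 1.1e-06, Benjamini-Hochberg, edgeR), wild-type mice first. *Rian* also kept its call in all 16 alternatives of each comparison.

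*Meg3* had the most reads of the set in whole lysates. It had 2660, 2010 and 1910 CPM in whole lysates of the Acb of wild-type mice and 1710, 1030 and 1710 CPM in heavy polysomal fractions. The rpS6P-/- mice had 1960, 2300 and 2640 CPM in Total against 962, 968 and 913 in Heavy. The differences were -0.61 (SE 0.16, adjusted p 0.00391) and -1.29 (SE 0.16, adjusted p 1.77e-07, Benjamini-Hochberg, edgeR). Heavy stayed below Total in both genotypes. The fitted gap was wider in rpS6P-/- mice, but the comparison of genotypes given below did not pass for *Meg3*. In the DS of wild-type mice, *Meg3* had 1400, 1980 and 1850 CPM in Total against 677, 1010 and 1420 in Heavy, with overlap. In the DS of rpS6P-/- mice it had 1730, 1940 and 2300 CPM in Total against 1640, 1400 and 1210 in Heavy, without overlap. The differences were -0.75 (adjusted p 0.000179) and -0.49 (adjusted p 0.0148, both SE 0.16, Benjamini-Hochberg, edgeR). Without wild-type replicate 2 the difference in the Acb of wild-type mice was -0.47 (adjusted p 0.0575), and in the DS of rpS6P-/- mice it was -0.50 without replicate 2 (adjusted p 0.109) and -0.27 without replicate 3 of that genotype (adjusted p 0.352, Benjamini-Hochberg, edgeR).

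*Mirg* was near the lower end of what these libraries measure, with 13 to 114 reads per library. In Total it had 2.29 to 9.68 CPM in the Acb (median 4.38) and 1.48 to 6.73 CPM in the DS (median 4.17), and in Heavy 1.04 to 3.95 (median 2.3) and 1.19 to 3.13 (median 3). Differences were -1.07 (SE 0.55) and -1.38 (SE 0.55) in the Acb and -0.80 (SE 0.61) and -0.71 (SE 0.60) in the DS, and adjusted p ranged from 0.0766 to 0.44 (edgeR, Benjamini-Hochberg). The 95% interval of each of these differences included the values of *Meg3* and *Rian* in the same comparison.

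*Snhg11* passed as lower in 3 of 4 comparisons. It had 457, 448 and 494 CPM in whole lysates of the Acb of wild-type mice against 330, 249 and 370 in heavy polysomal fractions, without overlap. In rpS6P-/- mice the libraries of one group differed widely, with 304, 502 and 743 CPM in Total and 200, 199 and 403 in Heavy. The differences were -0.61 (SE 0.22, adjusted p 0.039) and -0.95 (SE 0.22, adjusted p 0.00158, Benjamini-Hochberg, edgeR). The call in wild-type mice was lost without any of its 3 replicates (adjusted p 0.0692 to 0.24), and that in rpS6P-/- mice without replicate 2 (-0.79, adjusted p 0.0534, Benjamini-Hochberg, edgeR). In the DS it had 478, 604 and 705 CPM in Total against 277, 361 and 515 in Heavy in wild-type mice, and 503, 686 and 595 against 533, 465 and 360 in rpS6P-/- mice. These groups overlapped, and the differences were -0.63 (adjusted p 0.002) and -0.39 (adjusted p 0.0641, both SE 0.16, Benjamini-Hochberg, edgeR). The last passed without rpS6P-/- replicate 1 (-0.63, adjusted p 0.0125, Benjamini-Hochberg, edgeR).

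*Peg13* went the other way. In wild-type Acb it had 304, 264 and 287 CPM in whole lysates and 441, 356 and 507 CPM in heavy polysomal fractions, without overlap. In rpS6P-/- mice it had 332, 271 and 263 CPM in Total against 365, 455 and 315 in Heavy, which overlapped. The differences were 0.56 (SE 0.16, adjusted p 0.00638) and 0.38 (SE 0.15, adjusted p 0.0854, Benjamini-Hochberg, edgeR), and the first was 0.44 without wild-type replicate 3 (adjusted p 0.124). In the DS, *Peg13* had 365, 358 and 374 CPM in Total against 477, 460 and 448 in Heavy in wild-type mice. The rpS6P-/- mice had 388, 362 and 377 CPM against 444, 492 and 476. Neither pair of groups overlapped, and the spread within them was small, with differences of 0.34 (adjusted p 0.0446) and 0.33 (adjusted p 0.0516, both SE 0.13, Benjamini-Hochberg, edgeR). The call in the DS of wild-type mice was lost without any of the 3 wild-type replicates or without replicate 2 or 3 of rpS6P-/- mice, whose libraries share the estimate of the spread (adjusted p 0.0549 to 0.248, Benjamini-Hochberg, edgeR). *Trappc9*, in whose intron *Peg13* lies, was lower in Heavy in all 4 comparisons, by -1.03 and -0.72 in the Acb and -1.16 and -0.88 in the DS (adjusted p 3.6e-06 to 0.00732, Benjamini-Hochberg, edgeR).

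**Figure D2:**
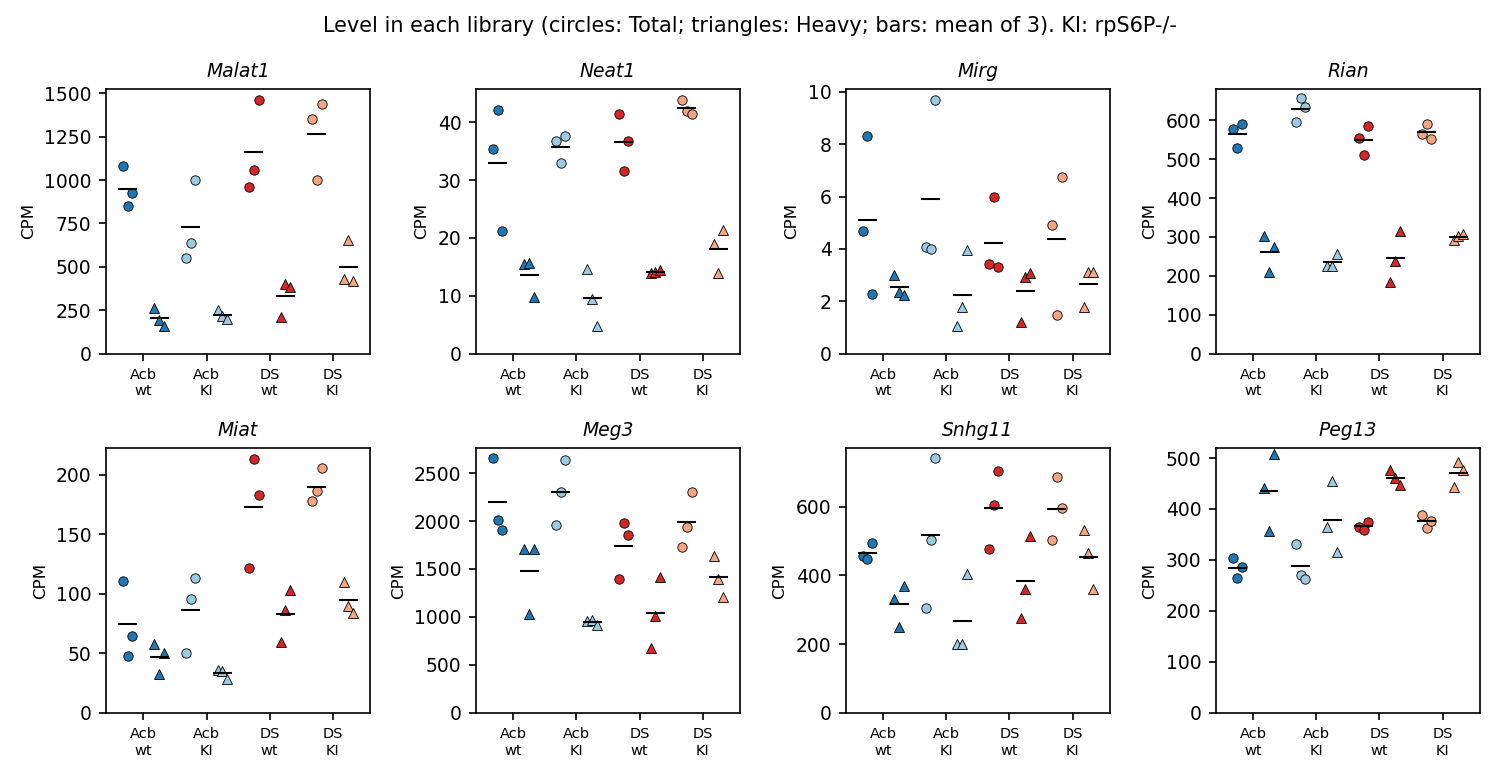
CPM of each RNA (vertical axes, from 0) in each of the 24 libraries, with circles for Total, triangles for Heavy and bars for the mean of 3 libraries, by region and genotype. Triangles lie below circles in the panels of *Malat1*, *Neat1* and *Rian* and above them in the DS panels of *Peg13*, while *Snhg11* and *Mirg* overlap in several groups.

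The Heavy level was then taken as a percentage of the Total level for each of the 12 pairs of libraries of one group and number. Each lysate was split into input and gradient parts, but the sources used here do not say that libraries of the same number came from the same lysates. The number alone ties the libraries of a pair. *Malat1* was at 17.1 to 65.4% (median 27.6%), *Neat1* at 12.4 to 51.5% (39.6%), *Rian* at 33 to 55.6% (46.3%), *Miat* at 25.1 to 77% (50.5%) and *Meg3* at 34.6 to 94.8% (52%). These 5 RNAs were below 100% in 12 of 12 pairs. *Mirg* was at 25.5 to 211% (median 45.2%) and *Snhg11* at 39.6 to 106% (63.1%), each below 100% in 11 of 12. *Peg13* was at 110 to 177% (130%) and above 100% in 12 of 12 pairs.

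In the order of these medians, *Malat1*, *Neat1*, *Mirg*, *Rian*, *Miat*, *Meg3* and *Snhg11*, the ranges of neighbours overlapped at every step, so that the order among these 7 was not resolved beyond their spread. The range of *Peg13* lay above that of *Snhg11* without overlap. The order was taken from these ratios and was not tested.

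**Figure D3:**
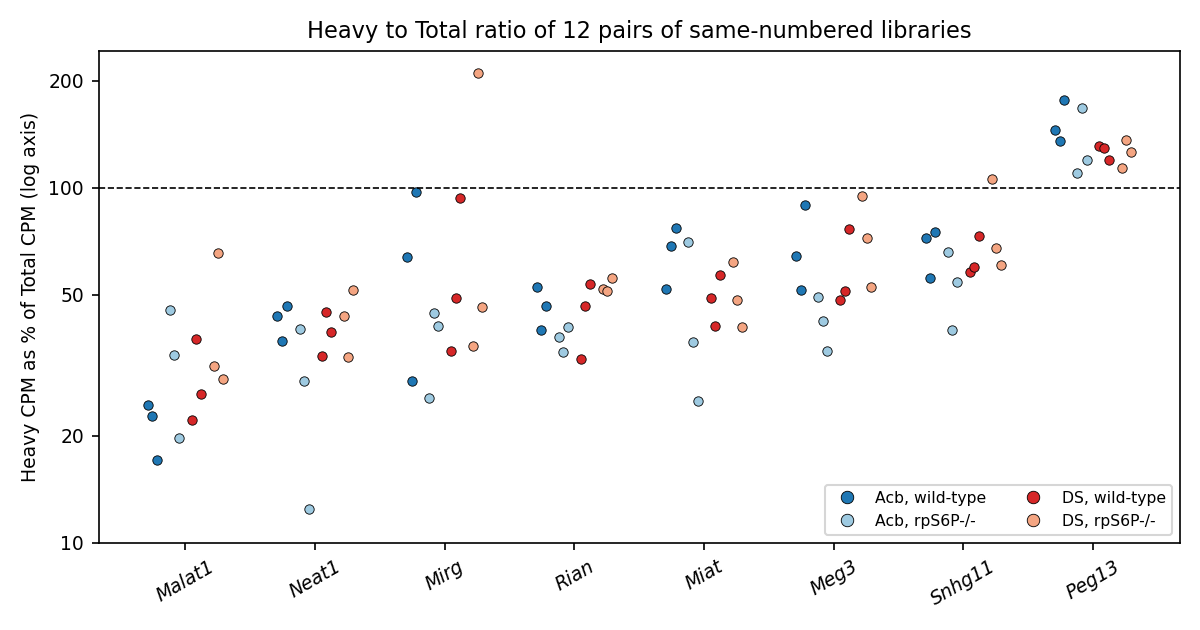
Heavy CPM as a percentage of Total CPM (log axis) for each RNA for each of the 12 pairs of same-numbered libraries, coloured by region and genotype, with a dashed line at 100%. The 12 points of *Peg13* lie above the line, from 110 to 177%, and those of *Malat1*, *Neat1*, *Rian*, *Miat* and *Meg3* lie below it.

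Depletion from heavy polysomal fractions also varied with transcript length among all genes. Genes were kept for this if they averaged 50 reads or more. In the Acb of wild-type mice, the 2120 with transcripts under 2 kb had a median difference of 0.41, the 4851 of 2 to 4 kb 0.14, the 4175 of 4 to 8 kb -0.15 and the 786 over 8 kb -0.52. In the DS of wild-type mice the medians were 0.53, 0.12, -0.22 and -0.60. The transcript of *Meg3* has 14548 bases. With the trend on length removed from each library, *Meg3* was at -0.01 in the Acb and 0.00 in the DS of wild-type mice (adjusted p 0.966 and 1, Benjamini-Hochberg, edgeR), and at 0.34 in the DS of rpS6P-/- mice (adjusted p 0.0868). In the Acb of rpS6P-/- mice it remained lower in Heavy, at -0.74 (adjusted p 0.000451, Benjamini-Hochberg, edgeR). Of the 25 calls over all members and comparisons, 10 were lost in this way. *Malat1* (6983 bases) and *Rian* (8089 bases) kept their calls.

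*Neat1* showed what the choice of transcript does to this correction. With the 20771 bases of its long form, the trend took its differences to -0.60 in the Acb and -0.47 in the DS of wild-type mice and to -0.27 in the DS of rpS6P-/- mice (adjusted p 0.129, 0.132 and 0.453), whereas it was still called in the Acb of rpS6P-/- mice (-1.20, adjusted p 0.0019, Benjamini-Hochberg, edgeR). With the 3004 bases of its short form it was called in 4 of 4 comparisons, with -1.43 and -2.04 in the Acb and -1.45 and -1.34 in the DS (adjusted p 1.74e-07 to 0.000167, Benjamini-Hochberg, edgeR). This second length was tried after the first result had been seen. *Peg13* has a transcript of 4725 bases, in a length class with medians below 0, and its difference stayed above 0 in every alternative of the 4 comparisons (0.18 to 0.81). With the trend removed it was called higher in 4 of 4 comparisons. Its differences were then 0.68 and 0.42 in the Acb and 0.52 and 0.52 in the DS, wild-type mice first (adjusted p 0.000671 to 0.042, Benjamini-Hochberg, edgeR).

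**Figure D4:**
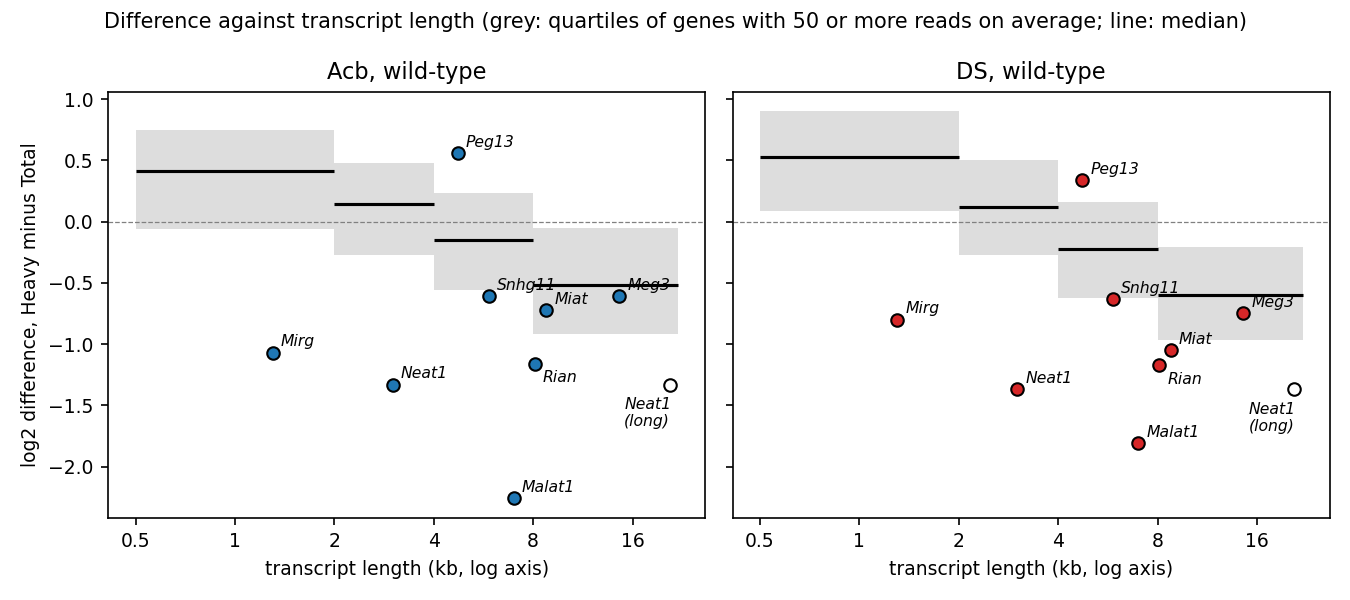
Fitted log2 difference of Heavy minus Total (vertical axis) against transcript length in kilobases (log axis) in wild-type mice, for the 8 RNAs (points; *Neat1* at its short form, and as an open circle at its long form), over the quartiles (grey) and median (line) of genes averaging 50 reads or more in 4 length classes. *Malat1*, *Rian*, *Mirg* and *Neat1* at either form lie below the grey boxes of their class and *Peg13* above its own. *Snhg11* lies just below its box in both regions, and *Miat* lies inside its box in the Acb and below it in the DS. *Meg3* lies inside that of the longest genes. Points are placed at the transcripts described above, whereas genes were classed by their longest transcript, which for *Mirg* and *Miat* is longer than the one plotted.

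Other noncoding RNAs were listed to set the 8 in context. Of 8 noncoding RNAs listed as cytosolic, 8 and 8 were lower in heavy polysomal fractions of the Acb (wild-type and rpS6P-/- mice) and 6 and 5 in those of the DS, with medians of -1.54, -2.0, -1.26 and -1.18. Where in the cell these RNAs lie was not tested, and for *2900097C17Rik* the sources used here do not give it. *Bc1* and *2900097C17Rik*, the most abundant of them, were at 2.88 to 23.3% (median 8.97%) and 32.8 to 60.8% (median 44.8%) of their Total level over the 12 pairs. The median of *Bc1* was below that of every member, whereas that of *2900097C17Rik* was close to those of *Mirg* and *Rian*. Of 11 or 12 other nuclear noncoding RNAs tested, 1, 4, 2 and 1 were lower and 1, 0, 1 and 2 higher. *Kcnq1ot1*, an imprinted nuclear RNA and one of the most abundant of that list, had differences of 0.03, -0.22, -0.38 and -0.15 (adjusted p 0.0952 to 0.946, Benjamini-Hochberg, edgeR) and a ratio of 63.9 to 132% (median 90.8%). *Dlx6os1*, the antisense RNA of *Dlx6* and the other of these, was higher in the Acb of wild-type mice (0.54) and the DS of rpS6P-/- mice (0.66), lower in the Acb of rpS6P-/- mice (-0.56) and not called in the DS of wild-type mice (0.28). *Firre*, a nuclear RNA named after its values were seen, was lower in 4 of 4 comparisons (-1.19, -1.47, -0.90 and -0.89). Of 9 coding neighbours of *Meg3* and *Peg13* in their imprinted domains, 3, 1, 2 and 2 were lower and 0, 0, 0 and 1 higher, and *Trappc9* was the only one lower in all 4 comparisons.

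The mRNAs that encode the protein partners of *Neat1* and *Malat1* were counted in the same way. Of 13 mRNAs of paraspeckle proteins, 9, 7, 9 and 8 passed as lower and 1, 1, 1 and 0 as higher, in the order Acb wild-type, Acb rpS6P-/-, DS wild-type and DS rpS6P-/-, with medians of -0.59, -0.50, -0.57 and -0.60. *Matr3* and *Hnrnpk*, the most abundant of them, were at -0.50 and -0.72 in the Acb of wild-type mice (adjusted p 0.00762 and 0.000434, Benjamini-Hochberg, edgeR), and *Nono* and *Sfpq*, the core proteins of the paraspeckle, at -0.91 and -0.69 (adjusted p 0.000102 and 0.00192, same test by edgeR). Of 12 mRNAs of speckle and splicing proteins, 6, 5, 5 and 5 were lower and 2, 4, 2 and 2 higher. *Qk*, which encodes a splicing regulator that binds an ACTAAC-like element, and *Srsf3*, a splicing factor, were the most abundant of these and were higher in the Acb of wild-type mice (0.63 and 0.70, adjusted p 0.00302 and 0.000323, Benjamini-Hochberg, edgeR). Of 20 abundant striatal coding genes, 8, 5, 10 and 10 were lower and 4, 6, 4 and 4 higher. In the Acb of wild-type mice, *Meg3* (-0.61) and *Snhg11* (-0.61) lay between the mRNAs of *Sfpq* (-0.69) and *Matr3* (-0.50).

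The ratio of Heavy to Total was next compared between genotypes. The study tested this ratio, its translational efficiency, with Xtail, which was not run here. Instead an interaction term of genotype with kind of RNA was fitted. None of the 8 passed in the Acb or in the DS, where 0% of all genes did in both regions by edgeR and 0 by DESeq2, and 1992 of 16687 genes in the Acb and 811 of 16544 in the DS had an unadjusted p under 0.05. In the Acb, fitted differences between genotypes were below 0 for 7 of 8, from -0.68 (*Meg3*, 95% interval -1.13 to -0.22) to -0.18 (*Peg13*), and above 0 for *Malat1* (0.52, 0.02 to 1.03). *Meg3* and *Malat1* were the members with an unadjusted p under 0.05 (adjusted p 0.259 and 0.406, Benjamini-Hochberg, edgeR). In the DS they were above 0 for 7 of 8, from 0.04 (*Miat*) to 0.47 (*Malat1*), with an adjusted p of 1 for each of the 8 (edgeR, Benjamini-Hochberg). The median of all genes tested was 0.01 in the Acb and 0.00 in the DS.

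Within each kind of RNA, no member passed the comparison of genotypes. In heavy polysomal fractions of the Acb, 0% of 16227 genes passed and 3518 had an unadjusted p under 0.05. *Meg3* was there at -0.61 (95% interval -0.98 to -0.24, adjusted p 0.109, Benjamini-Hochberg, edgeR), with 913 to 968 CPM in rpS6P-/- against 1030 to 1710 CPM in wild-type mice. It passed with DESeq2 (-0.62, adjusted p 0.0204), which called 1090 genes there, and with no filter (-0.61, adjusted p 0.0402, Benjamini-Hochberg, edgeR). In whole lysates of the Acb, beside 0.00650% of all genes, *Malat1* was at -0.39 (SE 0.13, adjusted p 1), with 549, 638 and 1000 CPM against 1080, 848 and 923. It passed there without rpS6P-/- replicate 3, the library at 1000 CPM (-0.69, adjusted p 0.00361, Benjamini-Hochberg, edgeR). In heavy polysomal fractions of the DS, beside 0.0440% of all genes, *Malat1* was at 0.61 (SE 0.20, adjusted p 0.495), with 427, 655 and 418 CPM against 212, 399 and 383. *Meg3* was at 0.46 (SE 0.19, adjusted p 0.715, Benjamini-Hochberg, edgeR). *Malat1* passed there without wild-type replicate 2 (0.76, adjusted p 0.0369, Benjamini-Hochberg, edgeR). In whole lysates of the DS, beside 0.122% of all genes, differences lay between -0.02 (*Snhg11*) and 0.19 (*Neat1*), with adjusted p from 0.602 (edgeR, Benjamini-Hochberg).

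Fitted genotype differences in heavy polysomal fractions were below 0 for 7 of 8 RNAs in the Acb and above 0 for 8 of 8 in the DS. The medians of all genes tested were -0.01 and 0.03. *Peg13* was at 0.04 in the DS, and at -0.02 with the length trend removed. The 8 RNAs did not vary independently (r 0.947 for *Meg3* and *Miat* over Heavy libraries), so these counts are a description. The difference between regions was therefore tested itself, in a comparison added after these values had been seen. None of the 8 passed, beside 0.00592% of all 16880 genes, and the largest value was that of *Meg3* (1.06, 95% interval 0.45 to 1.67, adjusted p 0.121, Benjamini-Hochberg, edgeR). *Meg3* passed with DESeq2 (1.07, adjusted p 0.0389), without a filter (1.08, adjusted p 0.0105) and without wild-type replicate 2 of the Acb (1.26, adjusted p 0.044) or wild-type replicate 3 of the DS (1.35, adjusted p 0.0329). Intervals of the other members ran from -1.42 to 1.94 for *Mirg* and from -0.28 to 0.66 for *Peg13*.

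The DS was compared with the Acb over both genotypes. In whole lysates, *Miat*, *Malat1* and *Peg13* were higher in the DS and *Meg3* lower, 3 and 1 of 8 beside 9.56% of all genes higher and 9.71% lower. *Miat* had 47.7 to 113 CPM (median 80.3) in 6 Acb libraries and 122 to 213 CPM (median 184) in 6 DS libraries, without overlap. It was thereby 2.2-fold higher (log2 1.14, SE 0.14, adjusted p 1.36e-09, Benjamini-Hochberg, edgeR). *Peg13* had 263 to 332 CPM (median 279) in the Acb and 358 to 388 CPM (median 370) in the DS, also without overlap (0.33, SE 0.07, adjusted p 0.000498, Benjamini-Hochberg, edgeR). *Malat1* had 549 to 1080 CPM (median 886) against 960 to 1460 CPM (median 1200), with a difference of 0.51 (SE 0.10, adjusted p 9.55e-05), and *Meg3* 1910 to 2660 CPM (median 2160) against 1400 to 2300 CPM (median 1900), with a difference of -0.30 (SE 0.08, adjusted p 0.00294, Benjamini-Hochberg, edgeR). Both overlapped between regions, and the call of *Meg3* was lost with DESeq2 (adjusted p 0.0819).

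In heavy polysomal fractions, *Miat* and *Malat1* were higher in the DS, 2 of 8 beside 10.3% of all genes higher, and 0 members were lower beside 9.44%. *Miat* had 28.5 to 57.5 CPM (median 35.5) in the Acb and 59.8 to 110 CPM (median 88.1) in the DS, without overlap (1.17, SE 0.17, adjusted p 2.63e-05). *Malat1* had 158 to 265 CPM (median 206) against 212 to 655 CPM (median 408), a difference of 0.93 (SE 0.17, adjusted p 0.000341, Benjamini-Hochberg, edgeR). *Snhg11* lay at the threshold (0.52, SE 0.18, adjusted p 0.0504, Benjamini-Hochberg, edgeR) and passed in 11 of 20 alternatives. In whole lysates *Snhg11* was at 0.24 (adjusted p 0.101) and passed in 6 of 20 (Benjamini-Hochberg, edgeR).

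Markers of other cells differed between the dissected regions. The 5 markers of cortical excitatory neurons, for example *Slc17a7* and *Neurod6*, summed to 69.3 to 197 CPM in whole lysates of the Acb and 738 to 962 CPM in those of the DS, and to 64.4 to 208 and 751 to 1000 CPM in heavy polysomal fractions. The 6 markers of astrocytes summed to 739 to 975 CPM in Total of the Acb and 456 to 567 CPM in that of the DS, and the 6 of microglia to 162 to 214 and 96.9 to 126 CPM. Their part in the regional differences of *Miat*, *Malat1*, *Peg13* and *Meg3* was not tested.

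Whether polysome association itself differed between regions was tested over all 24 libraries. None of the 8 passed, beside 2.15% of 17365 genes. The differences of the Heavy to Total difference, DS minus Acb, were 0.40 for *Malat1* (SE 0.20, adjusted p 0.327), 0.30 for *Meg3*, 0.22 for *Rian*, 0.00 for *Miat* (95% interval -0.51 to 0.51) and -0.17 for *Peg13* (edgeR, Benjamini-Hochberg). With the length trend removed, *Malat1* was at 0.61 (adjusted p 0.103) and *Meg3* at 0.55 (adjusted p 0.0626, Benjamini-Hochberg, edgeR).

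Deviations of the members from their group means were set side by side over libraries of one kind, as a description. Over the 12 Heavy libraries, Pearson's r of the 28 pairs ran from -0.682 (*Neat1* and *Snhg11*) to 0.947 (*Meg3* and *Miat*), with a median of 0.28, and *Meg3* and *Rian*, neighbours on chromosome 12, were at 0.876. Over the 12 Total libraries the range was -0.72 to 0.864 (median 0.0722), with *Meg3* and *Miat* again highest, while *Meg3* and *Rian* were at 0.0283. The libraries differ in depth, and each is scaled as a whole. The part of this in the correlations was not tested.

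Over all 24 libraries, the 5 genes of 11979 whose log2 CPM was most like that of *Malat1* were *Dock4*, *Kmt2d*, *Dock3*, *Zc3h13* and *Dip2b* (r 0.931 to 0.94). The 5 most like *Meg3* were *Kmt2a*, *Mdn1*, *Mycbp2*, *Lrp1b* and *Rbm33* (r 0.892 to 0.92). The 5 most like *Peg13*, a list added after its values were seen, were *Ulk2*, *Mtpn*, *Tppp*, *B230219D22Rik* and *Cacnb4* (r 0.934 to 0.953). The 24 values of each gene carry the differences between Heavy and Total and between regions, which the genes of a list share.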

How the data were processed

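Polysome-bound and total RNA of mouse Acb and DS were sequenced as stranded libraries from RNA bound to poly-T beads, and the authors deposited 1 table of raw read counts per gene. Per the submitters' processing notes, reads were handled with CASAVA 1.8.2 and FastQC, aligned with TopHat2 2.0.13 and Bowtie2 2.2.3 to mm10 (GRCm38) and counted with HTSeq 0.6.1p1. The removal of nuclei before Total was taken limits what the values say of any nuclear RNA, with or without a poly(A) tail. Levels and percentages of Total therefore refer to the cleared lysate and not to all RNA of the tissue. Poly-T selection further limits what they say of RNA without a poly(A) tail. Each of the 24 columns was matched to its sample by name, and groups were taken from the labels.

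Genes with a sum of at least 15 reads in the libraries fitted were tested with edgeR 4.0.16 (quasi-likelihood test, trimmed mean of M values, R 4.3.3), and p-values were adjusted by Benjamini-Hochberg over all genes. Heavy was compared with Total, and their ratio between genotypes, in 12-library fits of a region with 4 group means. Genotypes were compared in 6 libraries, regions in 12 with genotype as a covariate, and region by kind of RNA in 24. A call is an adjusted p under 0.05, and intervals cover 95%. Percentages of Total are ratios of scaled CPM. Alternatives were DESeq2 1.42.0 (test, or size factors alone), total reads only, other filters and sets of libraries, removal of a loess trend on transcript length (span 0.5, R 4.3.3), a replicate block, both together, and each replicate left out (Heavy and Total together where both entered). A Heavy replicate combined several gradient samples, and the sources used here do not state that the Total library of the same number came from the same lysates. Deviations of same-numbered libraries from their group means correlated at -0.0376 to 0.0743 over 11979 genes, in 0 of 12 pairs above 0.1. These correlations do not show that the libraries of a pair came from different lysates. The main fits have no block, and fits with a block are given as an alternative. Between genotypes within Total or Heavy, the block tied libraries of different mice that share only a number. Between regions it tied Acb and DS libraries of the same genotype and number. On simulated counts with 200 changed genes, the fit recovered 158 for Heavy against Total in the Acb of wild-type mice, with 13 other genes called (16327 genes, median fitted log2 difference 1.51). It recovered 120 for the ratio between genotypes in the Acb, with 5 others called (16318 genes, median 1.49). Between genotypes in Heavy of the Acb it recovered 168, with 16 others called (15896 genes, median 1.47). These changes were larger than the genotype differences of the members in these 2 comparisons. They were also larger than the Heavy to Total differences of all members except *Malat1* and *Neat1*. This recovery does not apply to differences of such smaller size.

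All 8 members are named, with the 2 most read genes of each list, those a sentence on a member turns on, and the 5 genes most like *Malat1* and *Meg3*. The members and lists were chosen with earlier results of these data known.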

Additional observations from a re-analysis of the deposited data

How the results depend on the processing

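The number of the 8 RNAs called between Heavy and Total (7, 6, 7 and 5 in the Acb of wild-type and rpS6P-/- mice and the DS of wild-type and rpS6P-/- mice) moved by more than 1.5 times under few settings. In wild-type Acb it was 4 with scaling to total reads only, where the median of all genes moved from 0.04 to 0.28 and the split of all calls from 1933 lower and 1915 higher to 1118 and 3477, and 3 with the length trend removed. In the DS it was 4 in wild-type mice with the trend removed, with or without the replicate block, and 3 in rpS6P-/- mice with the trend removed. With the trend removed, the difference of *Meg3* in the DS was 0.00 in wild-type mice (-0.01 with the block as well) and turned positive in rpS6P-/- mice (0.34, and 0.34 with the block, adjusted p 0.0468, edgeR with adjustment over all genes). The cause was not tested. Scaling to total reads moved the median of all genes to 0.32, 0.18 and 0.27 in the other comparisons, and the splits to 875 and 3625, 1209 and 3162, and 1245 and 3454.

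Counts of 0 between genotypes became 1 with the block and the length trend removed (ratio of Heavy to Total in the Acb: *Meg3*, -0.67, adjusted p 0.027, edgeR, where 150 of all genes passed and 106 with the block alone), with no filter and with DESeq2 (Heavy of the Acb), and with the block, alone or with the trend removed (Total of the Acb: *Malat1*, -0.43 and -0.45, adjusted p 0.0291 and 0.0107, edgeR). Within Total or Heavy, the block tied wild-type and rpS6P-/- libraries of the same number. These came from different mice, and nothing in the sources used here relates them. The calls of *Malat1* with the block therefore rest on an arbitrary pairing. Leaving out a replicate gave 0 to 1 in Total of the Acb and in Heavy of the DS. The count for region by kind of RNA became 3 with the block and the trend removed (*Malat1*, 0.58, *Meg3*, 0.55, and *Rian*, 0.44), where 477 of 17365 genes passed, 382 of them above 0, against 374 without either. That for genotype by region in Heavy became 1 with no filter and with DESeq2, and 0 to 1 without 1 replicate. In the sources used here, Heavy and Total libraries are tied by a replicate number only. Deviations correlated above 0.1 in 0 of 12 pairs, which does not show that the libraries of a pair came from different lysates. With these numbers as a block, *Snhg11* passed between regions (0.28, adjusted p 0.00136 in Total and 0.54, adjusted p 0.0356 in Heavy, edgeR). Between Heavy and Total the block gained *Mirg* in the Acb of rpS6P-/- mice (-1.47, adjusted p 0.0464) and *Snhg11* in the DS of rpS6P-/- mice (-0.40, adjusted p 0.0199), lost *Peg13* in the DS of wild-type mice (0.34, adjusted p 0.0654, edgeR), and changed no other call of the 8. Of the 25 calls, 10 were lost with the trend removed, 6 with the block too, 4 with total reads, 3 with DESeq2 and 1 or 2 in the other settings without a library left out.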
